A study of Mus musculus with 3 samples.

Results

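The 45 genes described here copy DNA, divide the cell or decide whether a cell enters the cycle, and they are a list fixed by name: 8 genes that license replication origins, 7 of the replication fork, 3 of nucleotide supply, 15 of mitosis, 9 kinases, cyclins and a transcription factor of the G1 phase, and 3 brakes on the cycle. All 45 were found by symbol among 55536 Ensembl genes, each with a single identifier. The cells were macrophages of the C57BL/6J mouse, phagocytes grown in culture from bone marrow. All 3 libraries belong to 1 condition: the cells had been kept in Lipid A at 100 ng/ml for 12 h, washed and rested for 12 h, and given Lipid A at 100 ng/ml again for 50 min. Lipid A, the membrane anchor of lipopolysaccharide, is what Toll-like receptor 4 detects in bacteria. Total RNA of the cytosolic fraction was depleted of ribosomal RNA before sequencing. The labels number the libraries as biological replicates 1, 2 and 3 of primary cells and give no age or genotype beyond the strain. No untreated library was analysed here, so levels cannot be set against resting or once-stimulated cells, and what can be compared is gene with gene and replicate with replicate.

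A cell that is to divide first loads the ring-shaped Mcm2 to Mcm7 helicase onto replication origins, in the step called licensing, with Cdc6 and Cdt1 as loaders. Cdc45 and the GINS proteins then turn the helicase on, and polymerase alpha, primase and the sliding clamp Pcna build the new strands. D-type cyclins with Cdk4 or Cdk6 inactivate the retinoblastoma protein Rb1, which frees E2F factors to switch on replication genes, while genes of mitosis follow later through other elements in their promoters. Macrophages grown from marrow divide in response to the growth factor M-CSF, and Lipid A is known to halt that division.

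The libraries held 47972048 to 54409437 expected counts, and the members held from 20 to 11714 counts each. All 12 macrophage markers had a TPM (a relative level per transcript length) of 1 or more in every replicate, with summed levels of 6630 to 8664 TPM per library. No marker of the 6 lists for T and NK cells, B cells, granulocyte precursors, progenitors, erythroid cells or stroma did so. Their summed levels per library ran from 0.01 to 0.15, 0.02 to 0.1, 0.95 to 1.28, 0.22 to 0.51, 0.01 to 0.17 and 0.01 to 0.09 TPM in that order, the highest single genes were Ngp at 0.557 and Kit at 0.263 TPM, and Cd3g and Ly6g had 0 counts. The nuclear RNA Malat1 stood at 5966, 3089 and 1426 CPM (counts scaled to TMM library sizes) in replicates 1, 2 and 3, so the libraries differed in the amount of this RNA, and its part in the differences below was not tested.

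Different promoter letters were common in the licensing genes and in the mitosis genes. RefSeq promoter windows, 250 bases before to 50 after a transcript start on GRCm38.p6, were given for 36 of the 45 genes. Of the licensing genes, 6 of 7 (85.7%) held one of the 8-letter E2F sites TTTCGCGC, TTTGGCGC, TTTCCCGC or TTTGCCGC on either strand, against 1 of 13 mitosis genes (7.69%) and 702 of 26994 genes of the whole table (2.60%). The CHR letters, for the cell cycle genes homology region (TTTGAA, its variant CTTGAA, and a variant that reads alike on both strands, TTCGAA), were in 11 of 13 mitosis genes (84.6%), against 2 of 7 licensing genes (28.6%) and 32.5% of all genes. CCAAT was in 12 of 13 mitosis genes (92.3%) and 5 of 7 licensing genes (71.4%), against 41.0% of all genes. The E2F share of the licensing genes did not extend to all replication genes. E2F letters were in 2 of 5 fork genes and 0 of 3 genes of nucleotide supply, or 8 of 15 replication members with licensing included. CHR letters were in 2 of 5 fork genes and 0 of 3 genes of nucleotide supply. CCAAT was in 5 of 5 fork genes and in 28 of all 36 members with a window (77.8%). None of the 6 G1 genes with a window held CHR letters, and 1, Cdk2, held an E2F site. A match of letters is a description of these windows and shows no binding.

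The 6 promoters printed here show both kinds of element. Each sequence is given 5′ to 3′ on the gene's strand up to the first base that RefSeq or GENCODE places in the gene, in lower case with every E2F, CHR and CCAAT match on either strand in capitals. Mcm5 (chr8:75109259-75109467, plus strand) and Mcm6 (chr1:128359706-128359955, minus strand) stand for the licensing genes and Cdk1 (chr10:69352939-69353162, minus strand) for a mitosis gene with both elements. Mki67 (chr7:135716451-135716629, minus strand), Top2a (chr11:99024200-99024439, minus strand) and Ccnb2 (chr9:70421555-70421804, minus strand) are mitosis genes with CHR and CCAAT letters alone. For 29 of the 39 windows of members, the bases just after the start lay in a GENCODE transcript of the gene. Those of Mcm5, Mcm6, Mki67 and Ccnb2 did not, so their distances rest on the RefSeq start alone.
Mcm5: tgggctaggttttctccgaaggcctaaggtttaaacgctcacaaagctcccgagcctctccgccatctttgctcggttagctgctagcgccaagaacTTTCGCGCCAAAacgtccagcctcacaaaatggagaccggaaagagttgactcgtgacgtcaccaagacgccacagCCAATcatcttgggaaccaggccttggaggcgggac
Mcm6: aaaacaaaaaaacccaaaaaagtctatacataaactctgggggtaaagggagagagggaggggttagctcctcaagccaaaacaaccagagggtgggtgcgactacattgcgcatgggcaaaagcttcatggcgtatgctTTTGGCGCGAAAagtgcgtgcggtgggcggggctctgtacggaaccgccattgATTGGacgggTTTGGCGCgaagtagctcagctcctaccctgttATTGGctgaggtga
Cdk1: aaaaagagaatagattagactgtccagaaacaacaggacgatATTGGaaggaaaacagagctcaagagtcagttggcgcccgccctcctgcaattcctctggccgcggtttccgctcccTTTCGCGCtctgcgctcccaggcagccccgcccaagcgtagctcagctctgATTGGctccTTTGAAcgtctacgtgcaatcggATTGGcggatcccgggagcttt
Mki67: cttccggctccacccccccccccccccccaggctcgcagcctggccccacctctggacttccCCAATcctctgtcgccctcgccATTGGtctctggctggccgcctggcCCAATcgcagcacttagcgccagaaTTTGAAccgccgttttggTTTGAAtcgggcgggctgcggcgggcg
Top2a: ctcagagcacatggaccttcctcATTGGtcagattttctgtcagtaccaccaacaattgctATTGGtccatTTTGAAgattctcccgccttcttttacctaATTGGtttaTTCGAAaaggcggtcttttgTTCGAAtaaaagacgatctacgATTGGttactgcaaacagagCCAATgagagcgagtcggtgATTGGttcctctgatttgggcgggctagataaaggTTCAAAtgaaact
Ccnb2: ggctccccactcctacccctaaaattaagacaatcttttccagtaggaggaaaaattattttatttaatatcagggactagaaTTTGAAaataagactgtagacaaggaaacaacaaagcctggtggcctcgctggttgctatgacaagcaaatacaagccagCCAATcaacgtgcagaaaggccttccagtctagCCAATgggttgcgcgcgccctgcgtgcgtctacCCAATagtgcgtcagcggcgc
Distances run to the transcript start of each window, which lies past the printed end for Mcm5, Cdk1, Mki67 and Top2a. Of the 250 bases before that start, 209, 224, 179 and 240 are printed for these genes in that order. Matches past a printed end are counted in the shares but not shown. In Mcm5 the overlapping capitals hold 2 E2F sites on opposite strands, whose first bases lie 153 and 149 bases before the start. In Mcm6 a like overlapping pair lies at 110 and 106 bases and a further E2F site at 47 bases. Cdk1 has its E2F site at 131 bases and CHR letters at 71 and 15 bases before the start, the last past the printed end. Mki67 has CHR letters at 116 and 98 bases, after CCAAT matches at 188, 166 and 141 bases.

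**Figure D1:**
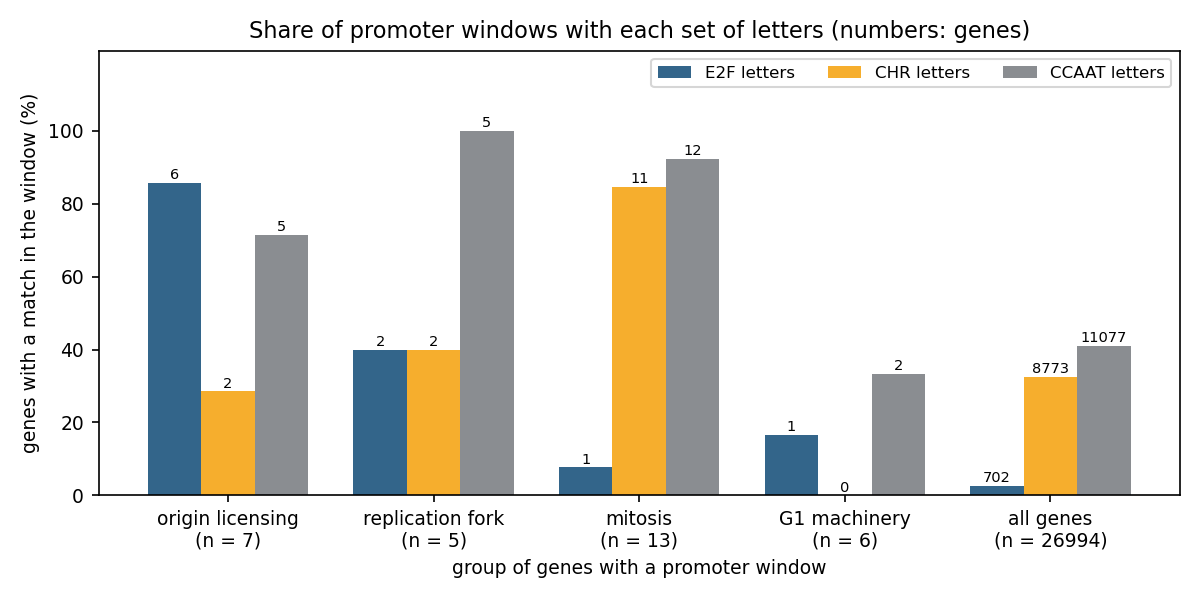
Share of genes (y axis, percent) whose RefSeq promoter window holds E2F, CHR or CCAAT letters, for 4 groups of members and all 26994 genes of the table (x axis, with the number of genes in each group); the number on each bar counts the genes with a match. E2F letters are in 6 of 7 licensing genes and CHR letters in 11 of 13 mitosis genes, against 2.60% and 32.5% of all genes. Nucleotide supply (3 genes) and brakes (2 genes) are not drawn.

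Most genes for copying DNA were present at low levels among expressed genes, and most genes for dividing the cell were below 1 in deposited TPM. Of the 45 genes, 30 (66.7%) reached 1 TPM in every replicate, against 17.2% of all 55536 genes and 41.1% of 22028 protein-coding genes. By role, 7 of 8 licensing genes, 6 of 7 fork genes, all 3 genes of nucleotide supply, 7 of 9 G1 genes and all 3 brakes passed, and 4 of 15 mitosis genes. These counts depend on the scale, since protein-coding genes held 33.3, 26.1 and 37.0% of TPM in replicates 1, 2 and 3. After TPM was rescaled to protein-coding genes, 42 of the 45 reached 1 in every replicate, against 46.6% of protein-coding genes, and Plk1, Ccnb2 and Cdc20 were the members with a mean below 1. The median TPM over the 45 was 3.07, 2.54 and 3.19 in replicates 1, 2 and 3. It was 9.78, 7.29 and 10.29 for the protein-coding genes that reached 1 TPM in every replicate. These sets are unlike, since 15 of the 45 did not pass that filter. In mean TPM, 37 members, among them those 15, lay below the middle of the filtered genes and 8 at or above it. In bulk RNA, fewer cycling cells and less of an mRNA per cell cannot be told apart.

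**Figure D2:**
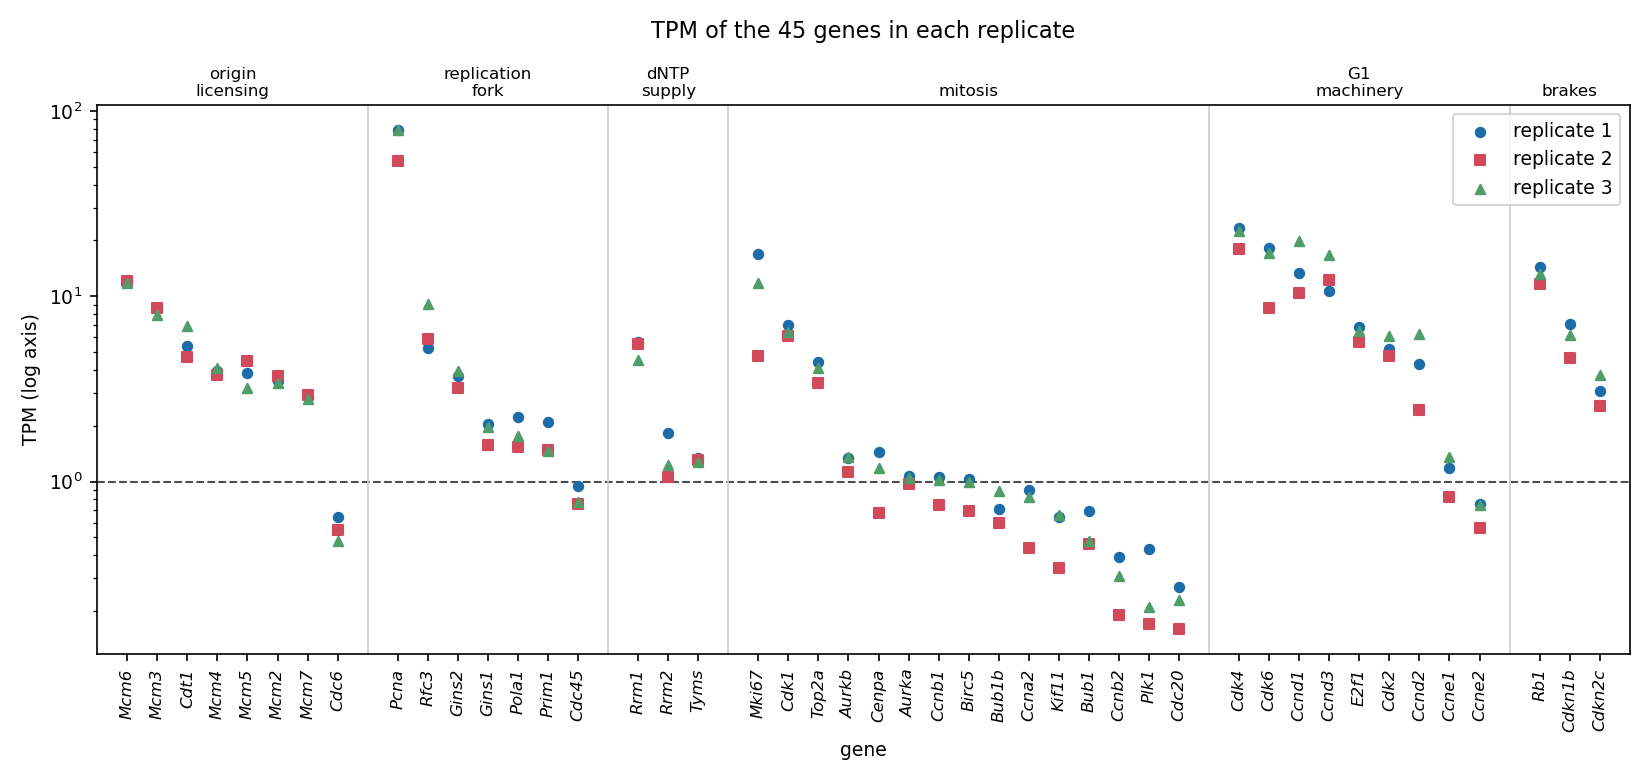
TPM (y axis, log scale) of each of the 45 genes (x axis, by role and falling mean) in replicates 1 (circles), 2 (squares) and 3 (triangles), with a dashed line at 1 TPM. Pcna stands highest, at 53.87 to 78.95 TPM, and most mitosis genes lie around or below the line.

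The Mcm helicase was transcribed from all 6 of its genes, at levels that differed by subunit. Mcm6 (chromosome 1, 128331590 to 128359664) was highest, with 12.03, 12.05 and 11.83 TPM in replicates 1, 2 and 3. Mcm3 had 8.61, 8.61 and 7.91 TPM, and Mcm7, the lowest, had 2.85, 2.94 and 2.80 TPM. The ring takes 1 copy of each subunit, yet within a library the highest subunit mRNA exceeded the lowest 4.10- to 4.23-fold. Between them lay Mcm4 (3.95, 3.75 and 4.08 TPM), Mcm5 (3.84, 4.49 and 3.19 TPM) and Mcm2 (3.48, 3.69 and 3.42 TPM), of which Mcm4 exceeded Mcm2 in 3 of 3 replicates while the range of Mcm5 overlapped both, so its place is not resolved. Mcm6, Mcm3 and Mcm7 did not overlap their neighbours. Reads of Mcm7 can be mixed with those of Ap4m1 and Cops6, which share 321 and 64 exonic bases with it on the opposite strand, since the strand setting is not given in the sources used here.

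The 2 loaders were far apart. Cdt1 had 5.37, 4.72 and 6.92 TPM and Cdc6 had 0.64, 0.55 and 0.48 TPM, and on the log2(TPM + 1) scale Cdt1 exceeded Cdc6 by 2.09 ± 0.29 (SD, n = 3), in 3 of 3 replicates. Cdc6 was thus the 1 licensing gene below 1 TPM, with 118, 162 and 79 counts. The licensing genes had a median of 3.92 ± 0.186 TPM (SD, n = 3).

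At the fork, the sliding clamp stood alone. Pcna (chromosome 2, 132249162 to 132253314), which also serves DNA repair, had 78.95, 53.87 and 78.78 TPM and by mean exceeded 92.0% of expressed protein-coding genes. Its mean was 10.4 times that of the next fork gene, the clamp loader subunit Rfc3, with 5.26, 5.87 and 9.13 TPM. The helicase partners were lower: Gins2 had 3.69, 3.19 and 3.93 TPM, Gins1 had 2.04, 1.57 and 1.98 TPM, and Cdc45 had 0.94, 0.76 and 0.78 TPM. Gins1 lay below Gins2 by a log2(TPM + 1) difference of -0.69 ± 0.05 (SD, n = 3), but 2758 exonic bases of Gins2 are shared with Gse1 on the opposite strand, so the level of Gins2 is uncertain. The polymerase alpha subunit Pola1 (1.85 ± 0.361 TPM) and the primase Prim1 (1.67 ± 0.361 TPM) overlapped each other and Gins1 (SD, n = 3).

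Among genes of nucleotide supply, the large subunit of ribonucleotide reductase exceeded the small one. Rrm1, the large subunit, had 5.63, 5.50 and 4.50 TPM and Rrm2, the small subunit that is normally made in S phase, had 1.82, 1.06 and 1.23 TPM, a log2(TPM + 1) difference of 1.40 ± 0.23 (SD, n = 3). The thymidylate synthase Tyms had 1.34, 1.30 and 1.28 TPM, in a range that Rrm2 overlapped. Of Tyms TPM, 47.3 to 88.3% lay on transcripts not classed as protein coding, over the replicates of both deposited transcript tables.

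Replication genes outside the list spanned a wide range of levels. Of 42 further replication genes, from origin recognition to histone loading, 35 reached 1 TPM in every replicate, with a median of 3.56 ± 0.422 TPM (SD, n = 3). The origin recognition subunit Orc1, at 0.247 TPM, was the lowest and Dck, a kinase of nucleotide salvage, at 30.3 TPM, the highest.

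Mitosis genes were the lowest group, with a median of 0.9 ± 0.192 TPM (SD, n = 3), and 9 of the 15 had a mean below 1 in deposited TPM, against 3 after the rescaling. The kinase Plk1 had 0.43, 0.17 and 0.21 TPM, and Cdc20, the activator of the anaphase-promoting complex, had 0.27, 0.16 and 0.23 TPM from 30, 25 and 20 counts. The B-type cyclins that drive entry into mitosis were Ccnb1 (1.06, 0.75 and 1.02 TPM) and Ccnb2 (0.39, 0.19 and 0.31 TPM). The spindle checkpoint genes Bub1 (0.69, 0.46 and 0.48 TPM) and Bub1b (0.71, 0.60 and 0.89 TPM) were similarly low, and the Aurora kinases Aurka (1.07, 0.97 and 1.05 TPM) and Aurkb (1.34, 1.12 and 1.36 TPM) were close to 1 TPM. Cyclin A2 (Ccna2), the spindle motor Kif11 and the survivin gene Birc5 had 0.723 ± 0.248, 0.547 ± 0.179 and 0.903 ± 0.186 TPM (SD, n = 3).

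Mki67, Cdk1 and Top2a stood above that group. Mki67 (chromosome 7, 135689784 to 135716361), which encodes the proliferation antigen Ki-67 that coats mitotic chromosomes, had 16.79, 4.74 and 11.83 TPM. The mitotic kinase Cdk1 had 6.99, 6.07 and 6.43 TPM and the DNA topoisomerase Top2a had 4.44, 3.42 and 4.10 TPM. Replicate 2 was the lowest for all of them on this scale, on which it was also lowest for 79.98% of all genes tested. The mean of Mki67 was 41.2 times that of Plk1 and 2.79 times that of Top2a, whereas between Mki67 and Cdk1 the order turned in replicate 2. Part of the TPM of Cdk1 (42.9 to 51.7%) and of Top2a (28.2 to 35.6%) lay on transcripts not classed as protein coding.

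Mitosis genes outside the list were low as well. Of 40 such genes 14 reached 1 TPM in every replicate, with a median of 0.843 ± 0.188 TPM (SD, n = 3). The phosphatase Cdc25c, at 0.04 TPM, was the lowest and the securin gene Pttg1, at 36.1 TPM, the highest.

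The machinery of G1 stood higher, with a median of 6.32 ± 0.587 TPM (SD, n = 3). Cdk4 (chromosome 10, 127063534 to 127067920), the kinase partner of D-type cyclins, had 23.36, 17.90 and 22.40 TPM, with the limit that 641 of its exonic bases are shared with Tspan31 on the opposite strand. Its relative Cdk6 had 18.25, 8.60 and 17.14 TPM, and Cdk2, the partner of the E-type cyclins, had 5.19, 4.73 and 6.13 TPM. On the log2(TPM + 1) scale Cdk4 exceeded Cdk6 by 0.56 ± 0.36, or by 0.35 without replicate 2, and Cdk2 by 1.80 ± 0.15, and Cdk2 lay below Cdk1 by a difference of -0.24 ± 0.16 (SD, n = 3).

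The D-type cyclins stood well above the later types. Ccnd1 had 13.37, 10.37 and 19.74 TPM, Ccnd3 had 10.65, 12.17 and 16.71 TPM and Ccnd2 had 4.33, 2.44 and 6.28 TPM. Summed, the D-type cyclins reached 28.35, 24.98 and 42.73 TPM in replicates 1, 2 and 3, the E-type cyclins 1.95, 1.39 and 2.11 TPM, and Ccna2 with the B-type cyclins 2.35, 1.38 and 2.16 TPM. Ccnd1 and Ccnd3 changed order between replicates and both lay above Ccnd2. Ccne1 (1.19, 0.83 and 1.36 TPM) exceeded Ccne2 (0.76, 0.56 and 0.75 TPM) in 3 of 3 replicates. Overlapping genes on the opposite strand share 1100 exonic bases with Ccnd1, 609 with Ccne2, 510 with Ccna2 and 361 with Ccnd3, which leaves those levels uncertain. In all, 14 members share exonic bases with a gene on the opposite strand, among them Cdc45 with 209 bases and Cdc20 with 53.

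The brakes were present throughout. Rb1, the retinoblastoma protein, had 14.44, 11.66 and 13.22 TPM and exceeded its target E2f1 (6.79, 5.66 and 6.50 TPM) by 0.95 ± 0.04 on the log2(TPM + 1) scale. The kinase inhibitor Cdkn1b (p27) had 7.09, 4.62 and 6.16 TPM, and Cdkn2c (p18), which acts on Cdk4 and Cdk6, had 3.07, 2.54 and 3.77 TPM, a difference of 0.75 ± 0.21 (SD, n = 3). The middle of the 3 brakes was 5.96 ± 1.25 TPM (SD, n = 3), and Rb1 shares 488 and 408 exonic bases with Rcbtb2 and Lpar6 on the opposite strand. Of 32 further genes of G1 and its brakes, 27 reached 1 TPM in every replicate. The 32 had a median of 4.27 ± 0.942 TPM (SD, n = 3) and mean levels from 0.113 TPM for Cdkn2a to 368 TPM for Samhd1, which degrades nucleotides.

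Across the 14 pairs of partners compared within each library, 13 had 1 sign in 3 of 3 replicates. By an exact two-sided sign-flip permutation each of the 13 had p = 0.25, or 0.269 adjusted over the pairs, and no p below 0.25 is possible with 3 replicates. The exception was Ccnd1 minus Ccnd3, with 0.11 ± 0.28 and a permutation p of 0.5. The design therefore cannot bring any pair past 0.05.

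The replicates were then compared in CPM, since the share of TPM on protein-coding genes differed between libraries: among genes that varied, replicate 2 differed from the mean of the others by a median of -0.44 log2 in deposited TPM, and by almost nothing in CPM. By a Poisson heterogeneity chi-square over 13827 genes with Benjamini-Hochberg adjustment at 0.05, 31 of 45 members (68.9%) varied beyond counting error, against 70.4% of all genes. The median ratio of the highest to the lowest replicate was 1.33 for members, against 1.27 for all genes tested. The members as a whole thus varied about as often as other genes. The spread between replicates, as edgeR's tagwise biological coefficient of variation, lay above the trend for the gene's level in 11 of 45 members (24.4%), against 23.8% of all genes.

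The Mcm helicase genes moved together. Mcm5 had 14.01, 21.5 and 11.7 CPM in replicates 1, 2 and 3, Mcm6 had 45.2, 61.5 and 44.3 CPM, Mcm3 had 21.5, 29.9 and 20.5 CPM and Mcm2 had 15.3, 21.9 and 14.9 CPM. Mcm4, with 18.4, 23.8 and 18.4 CPM, and Mcm7, with 8.27, 11.6 and 8.51 CPM, had the same shape. Replicate 2 was highest for all 6, by 1.30- to 1.53-fold over the next replicate, and all 6 passed the heterogeneity test, with Benjamini-Hochberg adjusted p-values from 2.02e-42 (Mcm6) to 1.49e-08 (Mcm7). Genes that passed and were highest in replicate 2 were 21.4% of all genes. Replicate 2 was highest for all 6 in 5 of 7 scalings, for 4 in deposited TPM and for 0 in TPM of the second transcript table, where 3.93% and 0.868% of all genes were highest there. For 5 of the 6 the biological coefficient of variation exceeded the trend. Without replicate 2, which was the high one, only 1 of the 6 varied between replicates 1 and 3, and 20 of 45 members did, against 53.1% of all genes.

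The loader Cdc6 followed the helicase and Cdt1 did not. Cdc6 had 2.32, 2.99 and 1.56 CPM, highest in replicate 2, while Cdt1 had 14.7, 17.7 and 19.2 CPM, highest in replicate 3. Rrm1, with 27.4, 31.8 and 23.1 CPM, was highest in replicate 2 as well, but Rrm2, with 4.77, 3.96 and 3.30 CPM, was highest in replicate 1. Cdc6 and Rrm1 were highest in replicate 1 in both unrescaled TPM tables. Among the other 42 replication genes 28 were highest in replicate 2 in CPM, 23 to 28 in the 5 scalings that do not shift it and 3 and 0 in the unrescaled TPM tables, against 32.4% of all genes tested in CPM, and 18 of the 42 passed the test and were highest there, against 21.4% of all genes. Of the other 39 members, 9 passed and were highest in replicate 2.

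**Figure D3:**
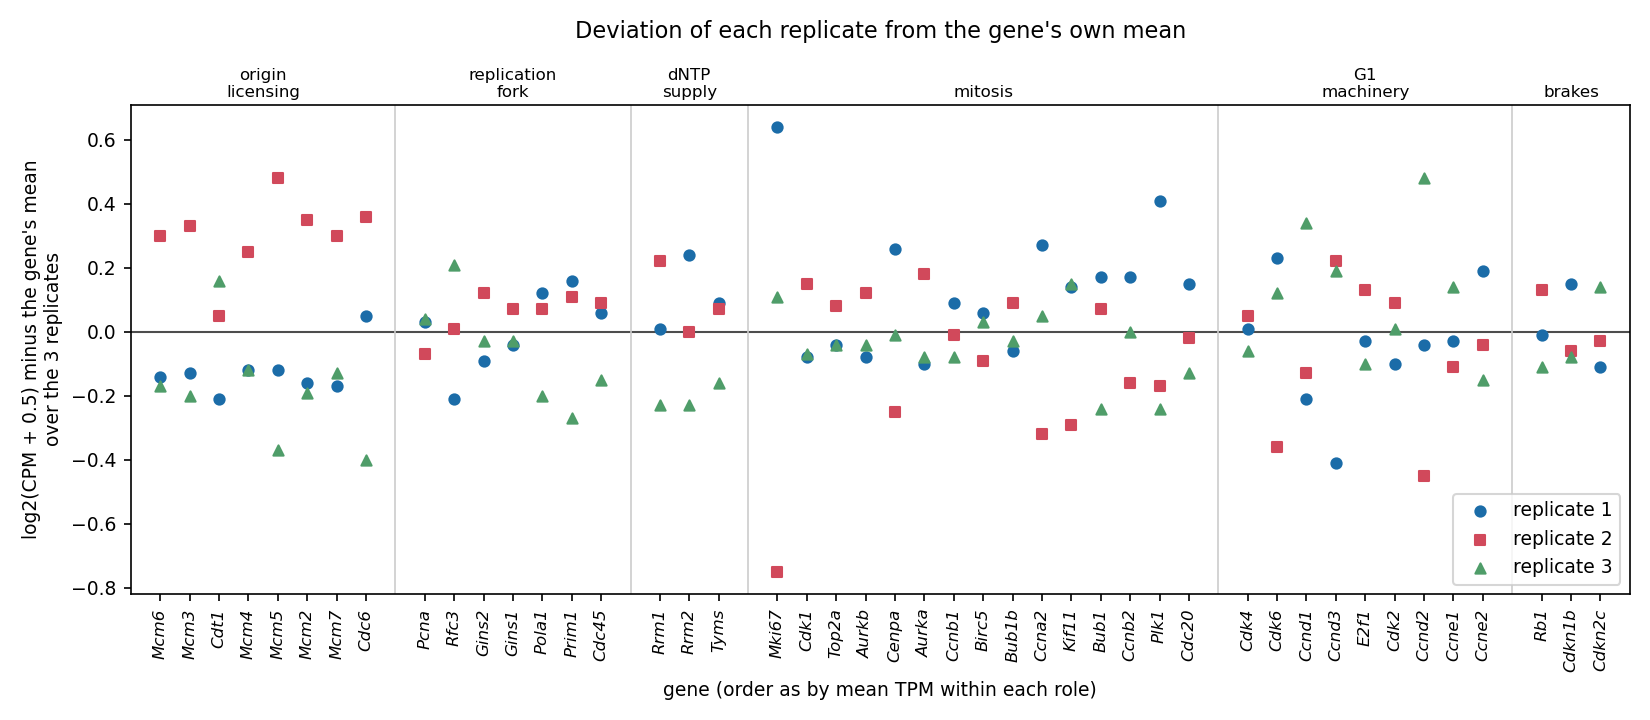
Deviation of log2(CPM + 0.5) in each replicate from the gene's own mean over the 3 replicates (y axis, log2) for the 45 genes (x axis, by role and falling mean TPM); circles, squares and triangles are replicates 1, 2 and 3. The squares of the Mcm genes and Cdc6 all stand above 0, from 0.25 to 0.48, while that of Mki67 stands at -0.75; in unrescaled TPM fewer Mcm genes are highest in replicate 2 (4 of 6 and 0 of 6 in the 2 tables).

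Mki67 went the other way and varied most. It had 230, 87.9 and 159 CPM from 11714, 4758 and 8074 counts, so replicate 1 was 2.61-fold above replicate 2, the lowest under all 7 scalings tried. Its heterogeneity chi-square of 3354 was the highest of the members, and its coefficient of variation, 0.308, exceeded the trend of 0.153. Top2a, also a gene of dividing cells, had 21.3, 23.1 and 21.4 CPM and did not pass the test, with a chi-square of 5.12 and a Benjamini-Hochberg adjusted p of 0.102. Ratios of Mki67 to Top2a in TPM were accordingly 3.78, 1.39 and 2.89. Mki67 has a transcript of about 10018 bases. The 229 genes of 8000 bases or more deviated by medians of 0.01, -0.03 and 0.04 log2 in replicates 1, 2 and 3. Of those long genes 38.9% were lowest in replicate 2 and 18.8% highest there, against 29.2% and 32.4% of all genes tested, and the part of length in these values was not tested.

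Of the 15 mitosis genes, 9 were highest in replicate 1 in CPM, with a median deviation of 0.14 log2 there, against 29.6% of all genes tested. Of the 40 mitosis genes outside the list, 18 were highest in replicate 1. The heterogeneity test was passed by 7 of 15, against 70.4% of all genes. The median ratio of the highest to the lowest replicate was 1.41 for the 15, against 1.27 for all genes tested. Both measures depend on counts, which were under 100 in every replicate for 4 of the 15, so the lower share passing does not show less variation. Passing and highest in replicate 1 were 5 of 15, against 20.1%, and passing and lowest in replicate 2 were 4 of 15, against 20.9%. In CPM 6 of the 15 were lowest in replicate 2 whether or not they passed, and in deposited TPM all 15. Besides Mki67, Plk1 varied most, with 1.18, 0.628 and 0.573 CPM, a 2.06-fold ratio on 60, 34 and 29 counts. Ccna2, with 3.14, 1.92 and 2.63 CPM, Kif11, with 4.14, 2.94 and 4.19 CPM, and Cenpa, the centromeric histone, with 2.32, 1.48 and 1.84 CPM, were lowest in replicate 2. Cdk1, with 6.83, 8.13 and 6.89 CPM, was highest there.

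**Figure D4:**
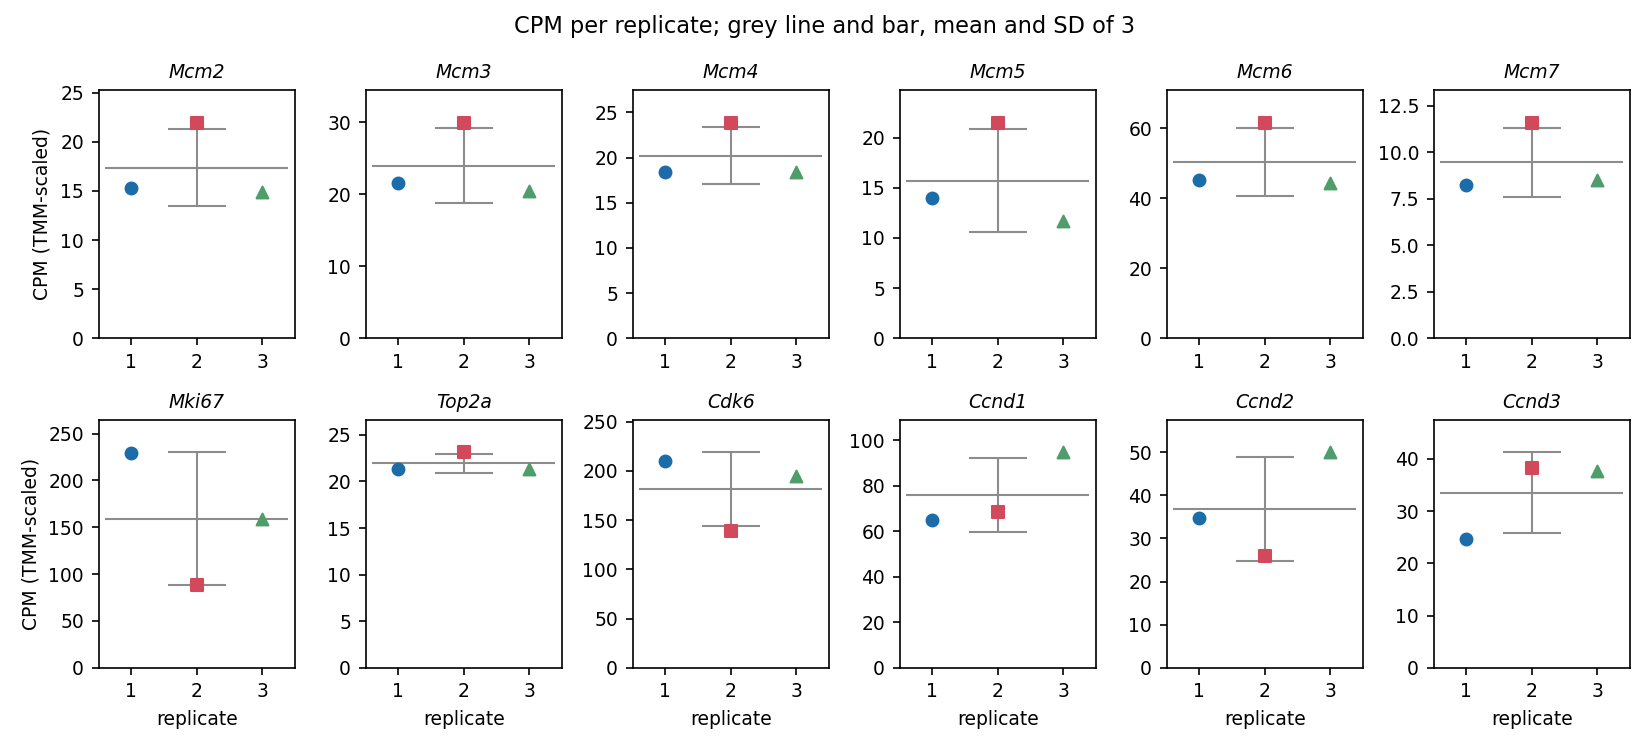
CPM scaled by TMM (y axis, from 0) in replicates 1, 2 and 3 (x axis) for the 6 Mcm genes, Mki67, Top2a, Cdk6 and the D-type cyclins; the grey line and bar give the mean and SD of the 3. Replicate 2 is the highest point in each Mcm panel, which unrescaled TPM shows for 4 or 0 of the 6, and the lowest for Mki67, Cdk6 and Ccnd2.

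Of the G1 genes, 7 of 9 passed the heterogeneity test, against 70.4% of all genes, and Cdk6 and the D-type cyclins had the highest ratios among them. Cdk6 had 210, 139 and 195 CPM and was lowest in replicate 2, and Cdk4 had 58.1, 59.8 and 55.4 CPM, a ratio of 1.08. With a mean transcript length, weighted by TPM, of 8529 bases, Cdk6 is among the genes of 8000 bases or more. Of those, 38.9% were lowest in replicate 2, against 29.2% of all genes tested, and the part of length was not tested. Cdk4, Cdk2 and E2f1 passed as well, and Ccne1 and Ccne2 did not. Ccnd1 had 64.8, 68.3 and 94.6 CPM and Ccnd2 had 34.6, 25.9 and 49.9 CPM, both highest in replicate 3, though not in unrescaled TPM of the second table. Genes that passed and were highest in replicate 3 were 28.9% of all genes. Ccnd3 had 24.7, 38.3 and 37.7 CPM, and was lowest in replicate 1, or in replicate 2 in that TPM. Which replicate was highest depended on the scaling, since all 3 D-type cyclins were highest in replicate 3 in deposited TPM and in TMM-scaled counts of the second table. Each passed the heterogeneity test, Ccnd2 with the highest ratio, 1.93. Of the brakes, Rb1 and Cdkn1b passed with ratios of 1.18 each, and Cdkn2c, with a ratio of 1.202, did not. Pcna, with 142, 132 and 143 CPM, passed with a ratio of 1.09.

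Several members had part of their TPM on transcripts that make no full protein. The 45 genes have 246 annotated transcripts, and by mean share over the replicates the same transcript led in both deposited transcript tables for 45 of 45. That transcript was protein coding for 44, but for 5 members, Cdc45, Tyms, Cdk1, Cenpa and E2f1, it did not lead in every replicate of both tables. The exception was Tyms, led in TPM, though not in counts, by Tyms-205, a transcript marked for nonsense-mediated decay. Transcripts outside the coding class held 87.3, 67.9 and 88.3% of Tyms TPM in the first table and 47.3, 67.8 and 80.9% in the second. In replicate 1 of the second table the coding Tyms-201 led, with 52.7% against 32.5% for Tyms-205. These shares rest on few reads, since Tyms had 85, 89 and 67 counts and Tyms-205 had 22.2, 33.1 and 24.9 of them.

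A share of at least 10% in every replicate was held by 7 members in the first table and 8 in the second, of which 6 were in both. Cdk1 had 49.8, 51.7 and 42.9% of its TPM outside the coding class, most of it on Cdk1-204, a retained-intron transcript of 475 bases with 62.5, 64.2 and 53.3 counts, against 249, 291 and 261 counts on the coding Cdk1-202 of 1253 bases. In replicate 1 Cdk1-204 led in both tables, with 49.2 and 43.1% of TPM against 48.5 and 38.2% for Cdk1-202. TPM divides by length, so a short transcript takes a larger share of TPM than of reads. The centromeric histone Cenpa had 44.8, 45.6 and 32.8%, mostly on Cenpa-202, marked for nonsense-mediated decay, and Top2a had 35.6, 31.9 and 28.2% on short processed transcripts among others.

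The 2 tables differed for some of them. Mcm3 had 43.1, 41.0 and 40.2% on retained-intron transcripts in the first table and 23.7, 15.7 and 15.5% in the second. The share of Rfc3 was 12.7, 40.1 and 39.8% in the first table, low in replicate 1, and 2.85, 18.4 and 21.9% in the second. Gene levels from the second table, after both were rescaled to protein-coding genes, lay between -0.44 (Mcm3) and 0.33 (Ccne1) log2 of those from the gene table, so all 45 were within 0.5.

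**Figure D5:**
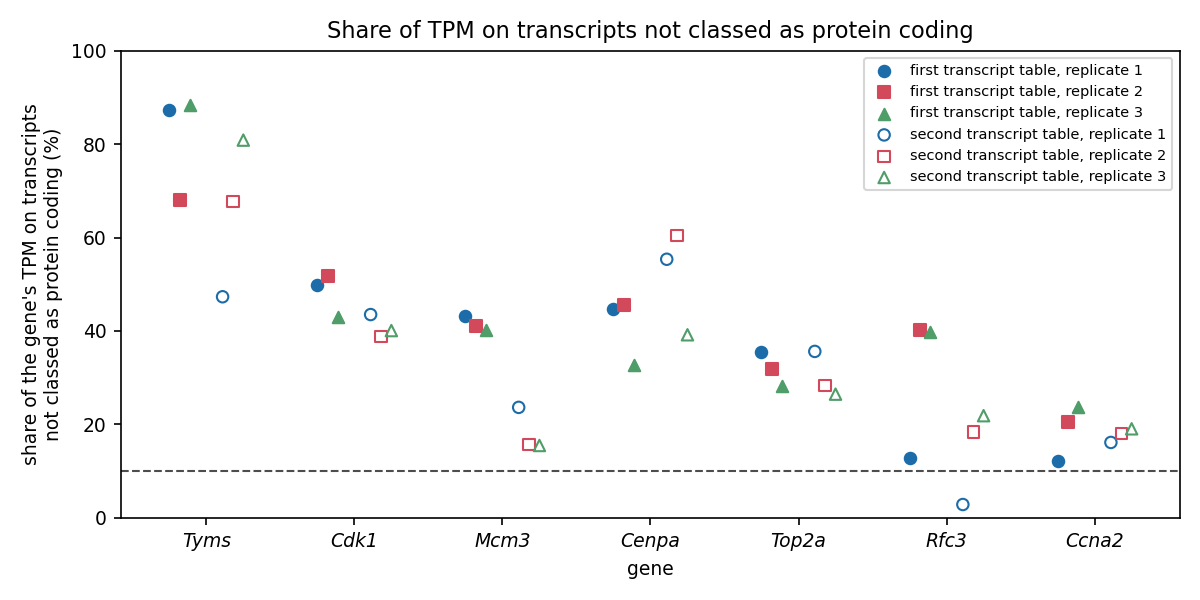
Share of TPM on transcripts not classed as protein coding (y axis, percent) for the 7 members with at least 10% (dashed line) in every replicate of the first transcript table (x axis); filled symbols are the first table, open symbols the second, and circles, squares and triangles are replicates 1, 2 and 3. Tyms stands highest, and Mcm3 and Rfc3 are lower in the second table.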

How the data were processed

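Cytosolic, ribosomal RNA-depleted total RNA was sequenced in 3 libraries of 1 group. Per the file headers, the authors deposited expected counts per gene and per transcript, without normalization, TPM over every indexed feature, and a posterior SD of each count. The assembly mm10 and annotation M21 are named in the deposited notes. No quantifier, aligner, version or strand setting is stated in the sources used here.

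Entries that name no gene (0.0251 to 0.0785% of counts) were left out. Expected counts were rounded. CPM used TMM library sizes (edgeR 4.0.16); spread came from an intercept-only edgeR fit. With 1 group, no test between groups exists: the Poisson heterogeneity chi-square (2 degrees of freedom, mean count of at least 10, R 4.3.3 and scipy 1.17.1) tests replicates against counting error, so its p-values measure only the spread between these samples. A count of 0 allows up to 0.0625, 0.0551 and 0.0561 CPM (3 counts, counting error only). RefSeq windows are on GRCm38.p6. Steps were tested on simulated data. Role groups, pairs and lists were chosen with earlier results of these data known. Values are given for the 3 highest and the lowest member of each role, the Mcm genes, the pairs, the 5 most variable members and further members whose values had been seen; alternatives included DESeq2 1.42.0 size factors. The posterior SD was at most 3.07% of a member's count and above 1% for 3 members.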

Additional observations from a re-analysis of the deposited data

How the results depend on the processing

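No paired analysis was possible because all samples belong to 1 group. Of the alternatives, 149 values kept their direction and stayed within the limits set, 23 moved and none reversed. All 14 pairs kept their sign, though no alternative took coding transcripts alone. In unrescaled TPM of the second table the log2(TPM + 1) difference of Cdk4 minus Cdk6 was 0.28, not 0.56. That of Gins1 minus Gins2 was -0.28, not -0.69, that of Cdt1 minus Cdc6 1.36, not 2.09, and that of Rrm1 minus Rrm2 0.93, not 1.40. TPM of the members was lower there, and adding 1 shrinks differences between low values. After rescaling to protein-coding genes, mean TPM in the gene table and the second table was 17.64 and 17.03 for Cdt1 and 1.78 and 1.84 for Cdc6. It was 16.7 and 15.8 for Rrm1, 4.285 and 4.33 for Rrm2, 66.45 and 66.7 for Cdk4 and 44.7 and 54.0 for Cdk6. For Gins1 it was 5.83 and 6.52, and for Gins2 11.3 and 9.72. Rescalings and the replicate orders under them, and the calls of the Mcm genes, were added after seeing the data. Members expressed numbered 30, against 38 at a minimum TPM of 0.5, 11 at 5, 19 in the second transcript table, and 42 in either table after rescaling to protein-coding genes. Members that varied beyond counting error ranged from 20 to 24 of 45 without 1 replicate, against 50.7 to 53.5% of all genes in those settings. Mcm genes that varied ranged from 1 to 6 of 6. In TPM of the second table, where 0.868% of all genes were highest in replicate 2, the Mcm genes highest there numbered 0, not 6, and the D-type cyclins highest in replicate 3 numbered 0, not 2. In deposited TPM, where 79.98% of genes were lowest in replicate 2, the mitosis genes lowest there numbered 15, not 6. Median TPM of licensing, fork, mitosis and G1 genes was 4.17, 2.77, 2.65 and 9.15 when only members averaging 1 TPM or more were kept. The values were 1.57, 0.908, 0.616, 0.388, 2.47 and 2.51 for licensing, fork, nucleotide supply, mitosis, G1 and brakes in the second table, and 12.6, 6.03, 4.64, 2.79, 19.9 and 18.6 after rescaling TPM to protein-coding genes, which hold 26.1 to 37.0% of it. The 5 members under 100 counts in every replicate (4 of the mitosis genes and Tyms) are limited by depth.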
